A study of Mus musculus with 3 samples.

Results

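Scin, Myo10, Neb, Fhdc1, Rhoq, Tppp3 and Ank2 are 7 mouse genes whose proteins act on actin filaments, on microtubules or on the membrane skeleton. They were chosen, out of 34289 listed features, for their measured levels in Langerhans cells after microneedling in these same libraries, so their levels and changes are given as a description and no test is made of them. All 7 symbols were found in the feature lists of all 3 libraries. They were grouped as cytoskeleton genes after microneedling, but several of them, such as Scin, Myo10 and Rhoq, were also far higher in the library treated with croton oil, as their levels below show.

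The series measured RNA in single cells of mouse ear epidermis by droplet-based 3' sequencing, after magnetic enrichment for Langerhans cells, the dendritic antigen-presenting cells that live between keratinocytes. The mice were males of the outbred Cd1 stock, and no transgene or deletion is stated for any group. The feature lists do hold reporter sequences, and mCherry was among the 10 genes that most set keratinocyte-like cells apart in both treated libraries. The untreated library came from mice given only Nair, a depilatory cream. The croton oil library came from skin that received croton oil, a plant irritant, together with acetone and olive oil, and the microneedle library from skin given multiple punches with a microneedle array. Ears were taken 48 hours after the first treatment. There was 1 library per group, and the labels state neither the number of mice behind a library nor their age. Differences below are therefore differences between 3 libraries, with no replicate check and no p-value, and every interval is a 95% interval that covers counting error only.

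Actin filaments give a cell its shape and its means of crawling. Severing and capping proteins shorten filaments or block their ends, formins lengthen them, myosins pull on or travel along them, and small GTPases switch these proteins on at the membrane. A Langerhans cell at rest holds long dendrites between keratinocytes, and a Langerhans cell that leaves the epidermis loses its anchorage and moves towards the lymph node, a change in which Ccr7, a chemokine receptor, and Fscn1, an actin bundler, are well-known markers. Neb is best known from skeletal muscle, Ank2 from excitable cells, and Tppp3 from cells that build stable microtubules.

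The promoters of Scin, Myo10 and Rhoq are shown because these 3 genes were far higher in both treated libraries. Each is the stretch of 250 bases directly upstream of the start of the gene's canonical transcript in GENCODE M39, read 5′ to 3′ on the gene's strand in GRCm39. Capitals mark matches to any of 11 motifs searched on both strands. The Scin stretch is chr12:40184228-40184477 (minus strand), the Myo10 stretch chr15:25622361-25622610 (plus strand) and the Rhoq stretch chr17:87270061-87270310 (plus strand).
Scin: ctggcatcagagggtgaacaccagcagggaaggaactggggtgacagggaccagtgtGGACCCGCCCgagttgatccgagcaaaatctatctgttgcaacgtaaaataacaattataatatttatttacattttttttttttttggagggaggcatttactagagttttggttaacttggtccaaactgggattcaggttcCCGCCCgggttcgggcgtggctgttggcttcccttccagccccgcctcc
Myo10: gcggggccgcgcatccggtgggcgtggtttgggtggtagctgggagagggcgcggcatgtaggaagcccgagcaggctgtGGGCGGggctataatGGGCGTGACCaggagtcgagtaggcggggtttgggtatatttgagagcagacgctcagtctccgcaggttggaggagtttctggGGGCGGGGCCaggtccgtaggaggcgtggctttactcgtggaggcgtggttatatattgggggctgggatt
Rhoq: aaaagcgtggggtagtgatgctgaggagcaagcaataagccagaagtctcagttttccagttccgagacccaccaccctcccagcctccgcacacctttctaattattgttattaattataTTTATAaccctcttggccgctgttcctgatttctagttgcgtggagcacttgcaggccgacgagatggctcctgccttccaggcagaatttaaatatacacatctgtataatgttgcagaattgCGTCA
The Scin stretch held an NF-kB match (GGG and CC with 5 unspecified bases between them) at bases -193 to -184, counted back from -1 at the base before the start. It overlaps an Sp1 match (GGGCGG), and a second Sp1 match lies at -49 to -44. The Myo10 stretch held NF-kB matches at -155 to -146 and at -71 to -62, the second overlapping an Sp1 match, and a further Sp1 match at -170 to -165. The Rhoq stretch held neither motif. It held a CREB-type site (TGACG) at -5 to -1 and a TATA box (TATAAA) at -129 to -124. Matches of this kind are common: among 21770 promoters of the same length, 47.8% held the NF-kB letters, 36.3% the Sp1 letters, 18.0% the CREB letters and 11.9% the TATA box. The letters of AP-1 (TGANTCA), Runx (TGTGGT), PU.1 (GAGGAA), TEAD (GGAATG), the E-box (CACGTG), an ISRE-type site (GAAA, 2 unspecified bases, GAAA) and the CArG box were in none of the 5 members' windows searched, against 6.17% (AP-1), 13.0% (Runx), 22.9% (PU.1), 12.1% (TEAD), 6.26% (E-box), 3.32% (ISRE) and 1.40% (CArG box) of all windows. A match is a description of letters and not a measured binding site.

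The libraries held 6945 to 9876 cell barcodes and 117178809 to 127666928 unique molecular identifiers (UMIs), each UMI standing for 1 captured RNA molecule. Pairs of libraries shared 13 to 32 barcodes. A cell was called a Langerhans cell when Cd74, H2-Aa, H2-Ab1 and H2-Eb1, the genes of MHC class II and its chaperone, made up at least 2% of its UMIs and it had at least 2 UMIs of Epcam. The gate took 8652 cells of the untreated library (median 11514.5 UMIs), 5920 of the croton oil library (12581 UMIs) and 5290 of the microneedle library (17346 UMIs). Between 89 and 210 cells per library lay near the MHC class II threshold, from 1.5 to 2.5% of UMIs. Cd207, the langerin gene that defines these cells, stood at 568, 326 and 465 CPM (a gene's UMIs scaled by all UMIs of the cells summed) in the order untreated, croton oil, microneedle. At least 1 Cd207 UMI was found in 8415, 4542 and 5031 of the gated cells. Of the 10 Langerhans cell markers, the gate itself used Cd74, H2-Aa, H2-Ab1, H2-Eb1 and Epcam, so their presence was set in advance. Besides Cd207, the rest were Mfge8 (464, 2220 and 1203 CPM), Cdh1 (383, 286 and 305 CPM), Csf1r (302, 588 and 622 CPM) and Cd24a (200, 299 and 378 CPM). Some RNA of other cells was present within the gate and differed between libraries. The summed CPM of 8 keratinocyte markers was 217, 187 and 43.6 in the same order, that of 8 T cell markers 3.08, 72.1 and 10.9, and that of 5 fibroblast markers 0.135 to 0.455. The neutrophil genes S100a8 (0.0744, 22.4 and 9.14 CPM) and S100a9 (0.204, 28.2 and 16.3 CPM) were lowest in the untreated library. The sum of 8 neutrophil markers, at 163, 88.6 and 109 CPM, ran the other way because Mmp9 alone made up 151, 23.7 and 71.0 CPM of it. The part of this RNA in the levels below was not tested, except where values are given.

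Genes with a mean of at least 10 CPM over the 3 Langerhans cell sums were compared, 8385 in all, and all 7 members passed. A gene was counted as higher or lower at a 2-fold change of CPM after adding 5 CPM to both sides, which makes changes of weakly expressed genes look smaller than they are. Microneedle against untreated, 3.47% of all genes were higher, against 4 of 7 members (Scin, Myo10, Rhoq and Fhdc1), and 1.42% were lower, against 0 of 7. Croton oil against untreated, 4.7% of all genes were higher, against 5 of 7 members (the same 4 and Tppp3), and 4.69% were lower, against 1 of 7 (Neb). Microneedle against croton oil, 0.966% were higher, against 1 of 7 (Neb), and 1.29% were lower, against 1 of 7 (Tppp3). The members were chosen on these contrasts, so nothing is read from these counts. The median log2 change of the members was 2.02 microneedle against untreated and 2.67 croton oil against untreated, beside 0.02 and -0.03 for all genes compared. Both comparisons use the same untreated library and are not independent of each other.

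**Figure D1:**
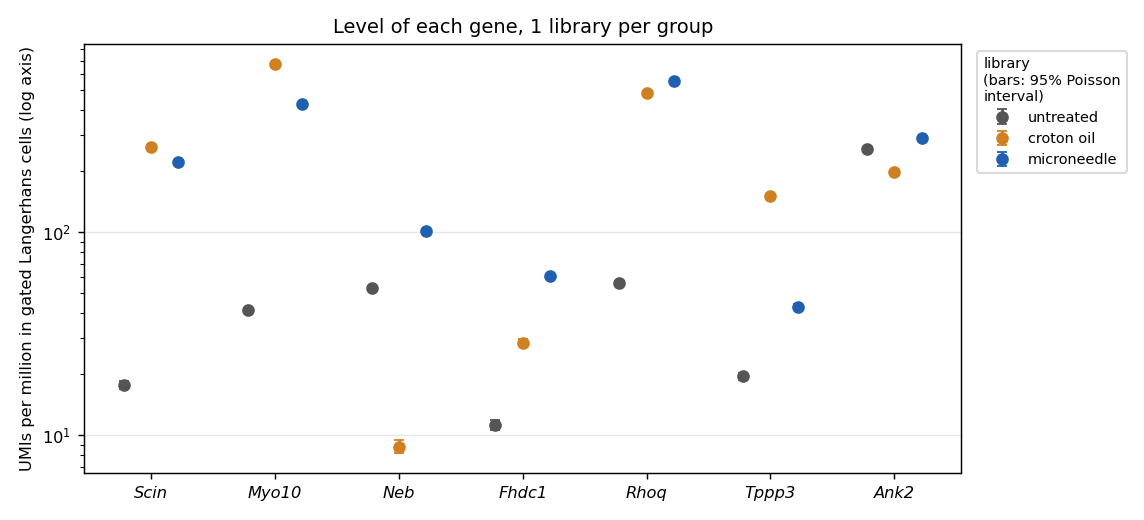
Level of each of the 7 genes in gated Langerhans cells, in CPM on a log axis, with 1 point per library and bars for the 95% Poisson interval. Scin, Myo10 and Rhoq sit far lower in the untreated library than in both others, Neb is lowest in croton oil at 8.78, and the 3 points of Ank2 lie between 198 and 292.

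Scin, which encodes the calcium-dependent actin-severing and capping protein adseverin, lies on GRCm39 chr12:40109755-40184227 (minus strand, 16 exons in the canonical transcript, ENSMUSG00000002565). Its level was 17.7 CPM (16.9 to 18.5) in untreated, 263 CPM (259 to 266) in the croton oil library and 221 CPM (218 to 224) in microneedle Langerhans cells. Both treated libraries were thus high and close to each other, with the untreated library far below them. The microneedle level was 12.4 times the untreated one (11.9 to 13.1), and only 6 of the 8385 genes had a larger upward log2 change. The microneedle level was 0.840 times the croton oil one (0.824 to 0.856). When each cell was thinned to 3000 UMIs, so that depth could not set the share, a Scin UMI was found in 2.41% of untreated, 23.9% of croton oil and 14.8% of microneedle Langerhans cells, and in 5.28%, 42.0% and 29.0% without thinning.

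Myo10 encodes an unconventional myosin that travels to the tips of filopodia, the thin actin-filled protrusions of moving cells, and lies on chr15:25622611-25813759 (plus strand, 41 exons, ENSMUSG00000022272). Its level was 41.2 CPM (40.0 to 42.5) in the untreated, 672 CPM (667 to 678) in the croton oil and 430.4 CPM (426 to 435) in the microneedle library. As for Scin, the untreated library stood apart from the treated ones, here with croton oil clearly on top. The ratio of microneedle to untreated was 10.4 (10.1 to 10.8), that of croton oil to untreated 16.3 (15.8 to 16.8) and that of microneedle to croton oil 0.640 (0.632 to 0.648). Thinned shares were 9.43% untreated, 55.1% croton oil and 37.2% microneedle, and 26.0%, 74.3% and 60.9% unthinned. Without cells high in C1q genes, the log2 change of Myo10 between microneedle and croton oil went from -0.64 to -1.43, past the 2-fold line. That setting leaves 413 croton oil and 1550 microneedle cells.

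Rhoq encodes TC10, a small GTPase related to Cdc42, and lies on chr17:87270311-87307908 (plus strand, 5 exons, ENSMUSG00000024143). Its level was 56.0 CPM (54.6 to 57.4) untreated, 484 CPM (479 to 489) in the croton oil library and 558 CPM (553 to 563) in microneedle cells. Here the microneedle library was the highest of the 3, by a factor of 1.15 (1.14 to 1.17) over croton oil and 9.97 (9.70 to 10.2) over untreated. Thinned shares were 11% untreated, 63.7% croton oil and 61.9% microneedle, so most treated Langerhans cells held a Rhoq UMI even at 3000 UMIs. Rhoq shares its locus with 2 listed genes. Gm50012 is a non-coding RNA inside Rhoq on the same strand (chr17:87277800-87282716), with 7.22, 40.2 and 47.2 CPM in the order untreated, croton oil, microneedle, and reads of the pair may not be separable. Pigf overlaps the 3' end on the opposite strand and stood at 15.8, 18.0 and 21.1 CPM. Its level is far below that of Rhoq in both treated libraries.

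Fhdc1 encodes a formin that acts on actin and microtubules and lies on chr3:84349504-84387772 (minus strand, 12 exons, ENSMUSG00000041842). Its level was 11.2 CPM (10.6 to 11.9) untreated, 28.6 CPM (27.4 to 29.7) in the croton oil library and 60.8 CPM (59.3 to 62.4) in microneedle Langerhans cells. The order differs from that of Scin and Myo10, since the microneedle library was the highest. The ratio of microneedle to untreated was 5.43 (5.10 to 5.78), that of microneedle to croton oil 2.13 (2.03 to 2.23) and that of croton oil to untreated 2.55 (2.38 to 2.74). With 5 CPM added, Fhdc1 lay just outside the 2-fold line for microneedle against croton oil (log2 change 0.97) and just inside it for croton oil against untreated (1.05). Keeping the cells with high doublet scores moved both across it, to 1.009 and 0.990, as did leaving out C1q-high cells, to 1.27 and 0.79. Thinned shares were 2.78% untreated, 6.83% croton oil and 12.3% microneedle.

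Neb encodes nebulin, the giant protein that lines the thin filaments of skeletal muscle, and lies on chr2:52026659-52268486 (minus strand, 165 exons, ENSMUSG00000026950). Its level was 53.2 CPM (51.9 to 54.6) untreated, 8.78 CPM (8.15 to 9.45) in the croton oil library and 101 CPM (99.2 to 103) in microneedle Langerhans cells. The 2 treated libraries lay on opposite sides of the untreated one. Microneedle over croton oil gave a ratio of 11.5 (10.7 to 12.5), and no other gene of the 8385 had a larger upward log2 change in that comparison. Against untreated, Neb was 1.90 times as high after microneedling (1.84 to 1.96), below the 2-fold line at a log2 change of 0.87, and 0.165 times as high after croton oil (0.152 to 0.178). Requiring 5% MHC class II UMIs brought the microneedle change to 1.06 and leaving out C1q-high cells brought it to 1.38. Skeletal muscle markers did not follow Neb: 6 of them summed to 4.67, 11.4 and 12.5 CPM in the order untreated, croton oil, microneedle, with Myh4 and Myh1 at 0 in all 3 libraries. Thinned shares were 10.4% untreated, 1.99% croton oil and 13.7% microneedle.

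Tppp3 encodes a member of the tubulin polymerisation promoting family and lies on chr8:106193662-106198158 (minus strand, 3 exons, ENSMUSG00000014846). Its level was 19.5 CPM (18.7 to 20.4) untreated, 151 CPM (148 to 153) in the croton oil library and 43.0 CPM (41.7 to 44.3) in microneedle cells. Croton oil was the high library for this gene, 7.73 times the untreated level (7.38 to 8.10). Microneedle cells had 2.20 times the untreated level (2.09 to 2.32) and 0.285 times the croton oil level (0.275 to 0.296). With 5 CPM added, the microneedle change was 0.97 on the log2 scale, just outside the line, and it passed at 1.003 without cells high in cell cycle genes and at 1.101 with 1 CPM added. Leaving out C1q-high cells took the log2 change between microneedle and croton oil from -1.70 to -0.82 and that between croton oil and untreated from 2.67 to 1.495. Thinned shares were 5.20% untreated, 31.7% croton oil and 10.9% microneedle.

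Ank2 encodes ankyrin-B, which ties membrane proteins to the spectrin skeleton, and lies on chr3:126715261-127292999 (minus strand, 46 exons, ENSMUSG00000032826). Its level was 256 CPM (253 to 259) untreated, 198 CPM (195 to 201) in the croton oil library and 292 CPM (288 to 295) in microneedle Langerhans cells. Against the untreated library its changes were smaller than those of the other 6 members, but between the treated libraries Ank2 differed by more than Scin or Rhoq. The microneedle level was 1.14 times the untreated one (1.12 to 1.16) and 1.47 times the croton oil one (1.44 to 1.499), and croton oil stood at 0.774 times untreated (0.759 to 0.790). A total of 2496 genes had a larger upward change between microneedle and untreated, so Ank2 was not among the genes that stand out there, and with at least 5% MHC class II UMIs its log2 change was -0.01 against 0.18. Thinned shares of 40.3% untreated, 30.1% croton oil and 37.7% microneedle placed untreated above microneedle, opposite to the CPM, whereas unthinned shares of 67.0% untreated, 57.0% croton oil and 68.8% microneedle did not, and no order is read from them. Without C1q-high cells the log2 change of croton oil against untreated was -1.13 against -0.36, and that of microneedle against croton oil 1.29 against 0.54.

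For each of the 7 genes, the counting intervals of the 3 Langerhans cell levels did not overlap. Whether intronic reads entered the counts is not stated. This version of Cell Ranger counts them by default, and if they were counted, the CPM of the long genes Ank2, Neb and Myo10 could include much unspliced RNA. A 3' assay does not tell isoforms apart, so a muscle-type and a short form of Neb, or the brain and other forms of Ank2, would be counted together. The opposite-strand non-coding genes Gm13522 (over Neb) and Gm16958 (over Ank2) stayed under 0.13 CPM.

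**Figure D2:**
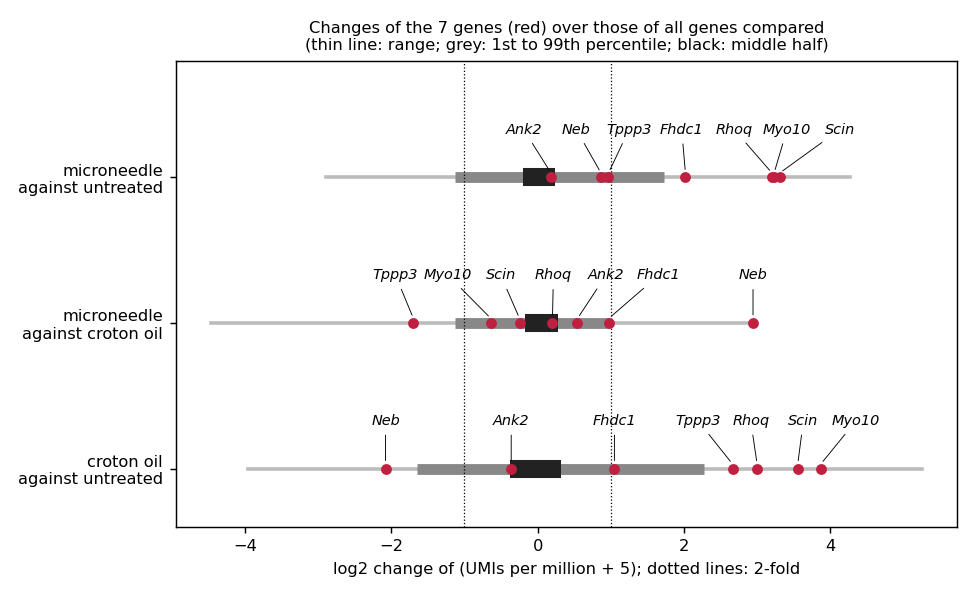
Log2 change of the 7 genes (red points) in the 3 comparisons, over the spread of all 8385 genes compared (thin line for the range, grey for the 1st to 99th percentile, black between the quartiles), with dotted lines at 2-fold. Scin, Myo10 and Rhoq lie beyond the grey bar in both comparisons with the untreated library, and Neb is the outermost gene on the right for microneedle against croton oil.

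The levels were then set beside those of the other cells of the same suspensions. MHC class II-high cells without Epcam, with fewer than 2 Epcam UMIs and outside the other gates, numbered 326 in croton oil and 62 in microneedle. Myo10 stood at 1318 CPM (1276 to 1360) and 834 CPM (709 to 975) in them, above its Langerhans cell levels of 672 and 430.4 CPM. All other members were below their Langerhans cell levels in both, as with Rhoq at 266 and 271 CPM. Neutrophil-like cells, which should lack Langerhans cell genes, served as a reading of free RNA, at median depths of 3230 UMIs in croton oil and 3341 in microneedle. Their Cd74 level was 1.64% of that of Langerhans cells in croton oil and 2.98% in the microneedle library. Scin in neutrophil-like cells stood at 1.25% and 2.93% of its Langerhans cell level, close to Cd74. The corresponding values were 9.61% and 9.90% for Myo10 and 9.28% and 10.2% for Rhoq, above those of Cd74. Tppp3 was at 10.2% and 28.9%, the highest microneedle value of any member. Neb stood at 12.5% and 4.26%, Fhdc1 at 3.84% and 7.98% and Ank2 at 3.87% and 2.22%. Thinned shares in neutrophil-like cells were 0 of 112 croton oil cells (upper limit 3.24%) and 0.752% of 266 microneedle cells for Scin, 3.57% and 5.64% for Myo10, and 10.7% and 13.2% for Rhoq. For these 3 members the shares lie well under the Langerhans cell shares of the same libraries. For Neb in croton oil the Langerhans cell share of 1.99% lay under the neutrophil upper limit of 3.24%, so by this share it cannot be told from background. The Neb level of 8.78 CPM there compares with 1.096 CPM (0.0277 to 6.10) in neutrophil-like cells. No cell of the untreated library met the neutrophil gate, so the untreated shares have no such reading.

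Keratinocyte-like cells held Scin at 53.3 CPM untreated, 70.4 in croton oil and 76.5 in microneedle, and Myo10 at 141, 253 and 242 CPM. In the untreated library this was 300.5% of the Langerhans cell level of Scin and 343% of that of Myo10, while Cd74 in the same cells was 16.0% of the Langerhans cell level. The low untreated levels of Scin and Myo10 in Langerhans cells therefore lie beside a higher level in keratinocyte-like cells of the same library. Fhdc1 followed a different order there, with 51.2 CPM untreated, 17.3 in croton oil and 33.5 in microneedle keratinocyte-like cells. Its untreated level in them was 458% of that in Langerhans cells, the highest such value of any member. Rhoq, at 12.3, 58.8 and 36.1 CPM, and Neb, at 10.8, 0.812 and 2.95 CPM, were lower in keratinocyte-like than in Langerhans cells in every library. Keratinocyte-like cells numbered 168, 194 and 74.

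T cell-like cells could be described in the croton oil library only (135 cells, median 6190 UMIs). Rhoq stood at 607 CPM (560 to 657) in them, above its level of 484 CPM in Langerhans cells, and 74.6% of 126 thinned cells held a UMI. Rhoq was therefore not restricted to Langerhans cells in these suspensions. Scin was at 94.7 CPM and Neb at 21.9 CPM (13.7 to 33.2), the latter above the 8.78 CPM of Langerhans cells of that library. Monocyte- or macrophage-like cells were numerous enough in the microneedle library (85 cells). They held Tppp3 at 114 CPM (89.8 to 142), against 43.0 CPM in Langerhans cells, and Rhoq at 102 CPM. Fhdc1 had 0 UMIs in them, with an upper limit of 5.45 CPM.

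**Figure D3:**
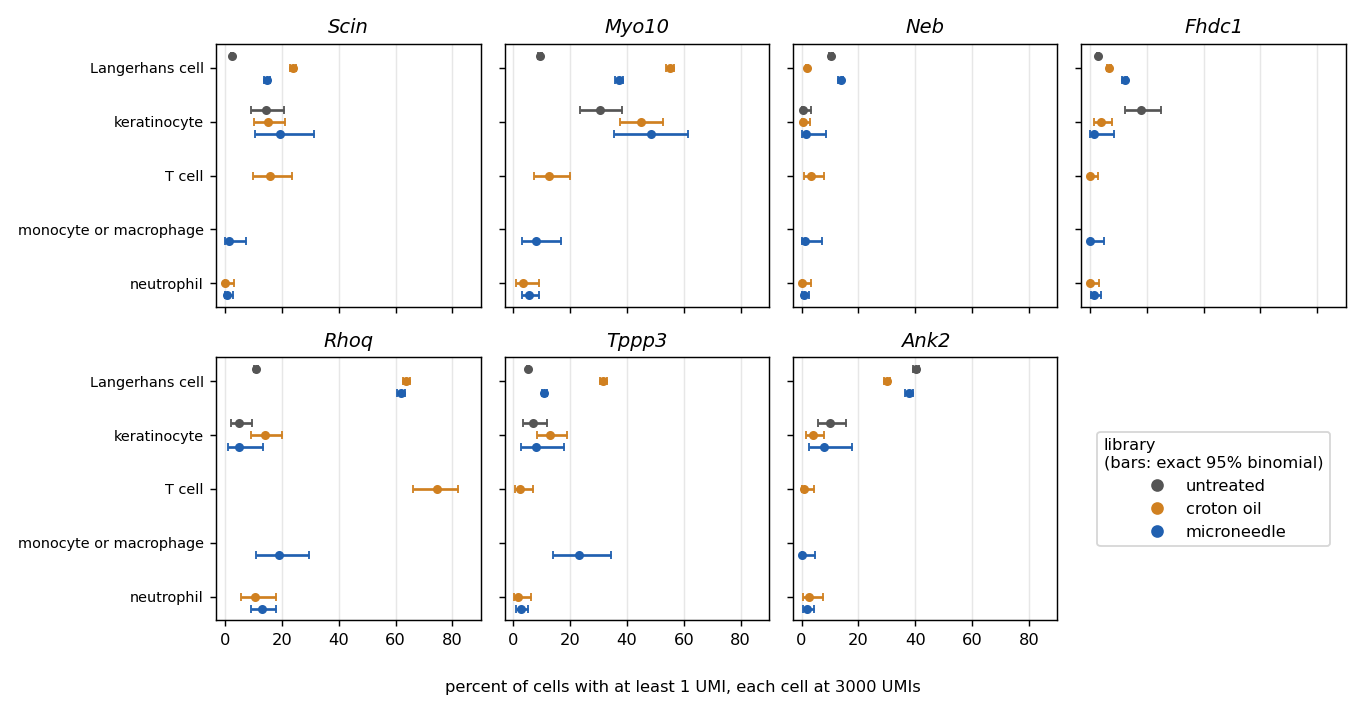
Percent of cells with at least 1 UMI of each gene after thinning to 3000 UMIs, by cell class (rows) and library (colours), with exact 95% binomial intervals. Classes under 50 cells, cells outside every gate and MHC class II-high cells without Epcam are not plotted. Rhoq is found in 63.7% and 61.9% of treated Langerhans cells and in 74.6% of croton oil T cell-like cells, while Ank2 is found in 30.1 to 40.3% of Langerhans cells and in at most 10% of the cells of each other class plotted.

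Cells with Ccr7 and Fscn1, the markers of Langerhans cells on their way out of the epidermis, held a different mixture of the 7 genes. Cells were called high when Ccr7 and Fscn1 together reached 0.02% of UMIs. Inside the gate 13 untreated, 134 croton oil and 29 microneedle cells were high. Among MHC class II-high cells without Epcam, 110 croton oil, 8 microneedle and 7 untreated cells were high. A further 556 croton oil and 159 microneedle cells, but 1 untreated cell, were high and fell in no class. They are called outside every gate here, though cells meeting more than 1 of the keratinocyte, neutrophil and T cell gates are counted with them. The 556 and 159 cells had 2312 and 1386 CPM of Cd74 and 98.7 and 138 CPM of Cd207, well under the gated level. They are given no cell type here.

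Myo10 was the member that was higher in high cells. Inside the gate it stood at 1612 CPM (1557 to 1669) in high against 649 CPM in low croton oil cells, and at 911 CPM (837 to 990) against 427 CPM in the microneedle library. Outside the gates it reached 1662 CPM (1635 to 1690) in the croton oil library and 2143 CPM (2087 to 2199) in microneedle cells. The other 6 members were lower in high than in low gated cells in both libraries. Outside the gates, croton oil cells had 96.1 CPM of Scin, 84.3 of Rhoq, 32.0 of Ank2, 6.04 of Tppp3, 4.74 of Neb and 0.948 of Fhdc1. The microneedle cells had 46.4 CPM of Scin, 86.0 of Rhoq, 28.2 of Ank2, 4.57 of Tppp3, 11.8 of Neb and 1.52 of Fhdc1. Scin and Myo10, which were alike across the libraries, thus went opposite ways with Ccr7 and Fscn1. Over all gated cells Myo10 stood at 672 CPM in the croton oil library and at 430.4 CPM after microneedling, beside 649 and 427 CPM in the cells low in Ccr7 and Fscn1.

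**Figure D4:**
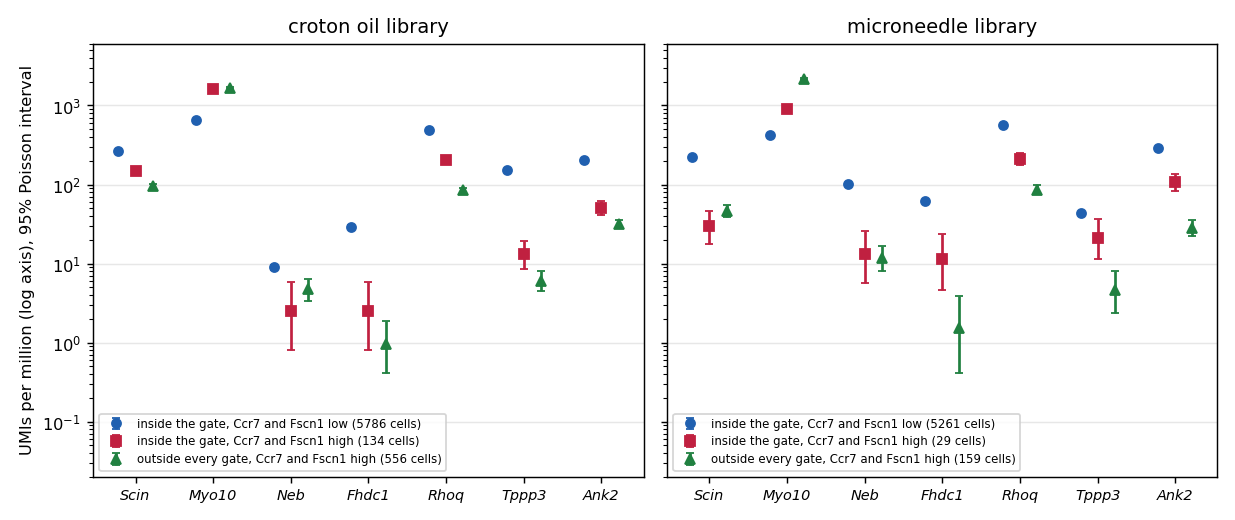
Level of the 7 genes, in CPM on a log axis with 95% Poisson intervals, in gated Langerhans cells low (circles) or high (squares) in Ccr7 and Fscn1 and in high cells outside every gate (triangles), for both treated libraries. Myo10 is higher in the high cells, up to 2143, and the other 6 genes are lower in them.

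C1qa, C1qb and C1qc, complement genes typical of macrophages, together reached 0.02% of UMIs in 8.28% of untreated, 93.0% of croton oil and 70.7% of microneedle Langerhans cells. Within the microneedle library, C1q-high cells had more Myo10 than C1q-low cells (478 against 312 CPM), more Rhoq (578 against 508) and more Tppp3 (46.9 against 33.3), but less Neb (81.6 against 150 CPM). Scin, at 225 and 210 CPM, and Ank2, at 292 and 291 CPM, were close. In croton oil, C1q-high cells had more Tppp3 (158 against 62.7 CPM) and Ank2 (206 against 116 CPM), and less Myo10 (657 against 851 CPM) and Scin (253 against 370 CPM). Myo10 therefore went opposite ways in the 2 treated libraries. Among the 413 C1q-low cells of the croton oil library, Ccr7 stood at 119 CPM against 12.9 CPM in C1q-high cells, and its part in these differences was not tested. Cycling cells, high in Mki67 and 4 other cell cycle genes, had less Scin than the rest in all 3 libraries: 9.73 CPM (8.02 to 11.7) against 18.7 CPM in untreated, 193 against 267 CPM in croton oil and 183 against 225 CPM in microneedle cells. Myo10 was higher in cycling croton oil cells (909 against 658 CPM) and Tppp3 lower (113 against 153 CPM). In the microneedle library the other 6 members differed by a smaller ratio, as in Myo10 at 451 against 428 CPM and Fhdc1 at 53.4 against 61.7 CPM.

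The genes also differed in how evenly they were spread over Langerhans cells. At 3000 UMIs per cell, the variance of Scin over microneedle cells was 7.41 times its mean, against a median of 1.29 over 829 genes of similar mean, and none of those reached it. In croton oil the ratio was 5.26 and 2 of 687 similar genes were as high. A Scin UMI was found in 773 of the 5231 microneedle and 1408 of the 5888 croton oil cells, and 4.55% of microneedle and 4.82% of croton oil cells had 5 or more, against 0.281% of untreated cells. Positive microneedle cells had 3.997 Scin UMIs on average, against 3.01 in croton oil and 2.14 in untreated cells. Fewer microneedle than croton oil cells held Scin, and those that did held more.

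Myo10 had a ratio of 4.80 in microneedle cells (1 of 432 similar genes as high) and 4.06 in croton oil (3 of 235). Neb reached 3.52 in microneedle cells (2 of 1728 as high) and Ank2 3.09 (11 of 629). Rhoq was more even, at 2.28 against a median of 1.69, with 70 of 304 similar genes as high. Tppp3, at 1.19 in microneedle cells, was near the median of 1.09, and 564 of 2280 similar genes were as high.

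**Figure D5:**
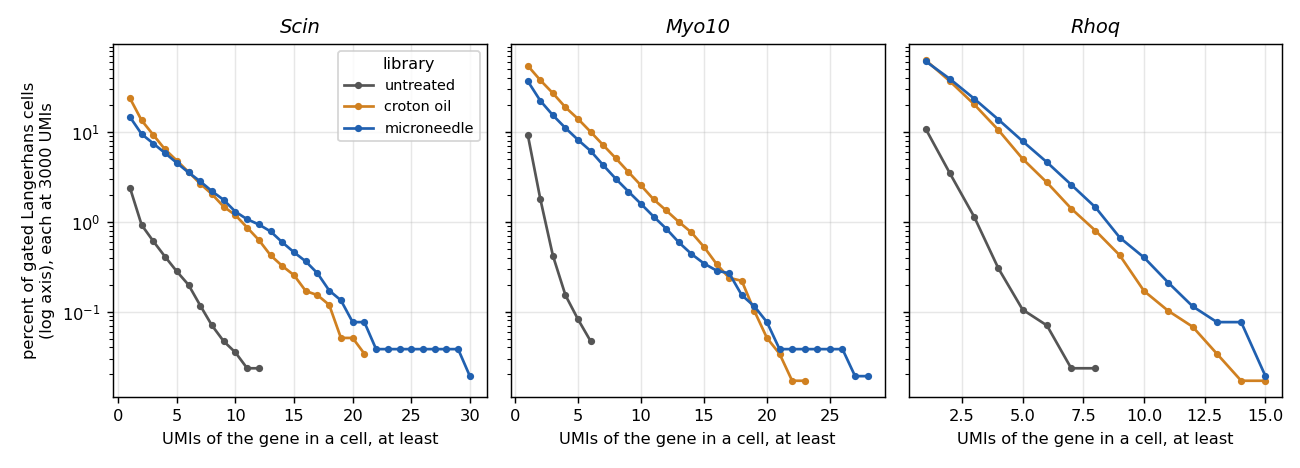
Percent of gated Langerhans cells (log axis) with at least a given number of UMIs of Scin, Myo10 or Rhoq, each cell thinned to 3000 UMIs, by library. The Scin curves of both treated libraries start at 23.9% and 14.8% and come close at 5 UMIs, at 4.82% and 4.55%, and the untreated curve lies far below both.

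Whether the members were found in the same cells was described by co-detection, which was counted for the 21 pairs of members in thinned cells. Scin and Myo10 were found together in 359 microneedle cells, against 287 if they were independent, a ratio of 1.25 (1.12 to 1.39). Scin with Rhoq gave 1.21 (1.11 to 1.31), Myo10 with Rhoq 1.14 (1.08 to 1.20) and Neb with Rhoq 1.13 (1.03 to 1.23). These 4 pairs had intervals above 1 in both random draws of the thinning. In croton oil the same 3 pairs among Scin, Myo10 and Rhoq had intervals above 1, at 1.12, 1.08 and 1.06, as did Neb with Fhdc1 on 16 cells. Myo10 with Tppp3 lay below 1 there, at 0.889 (0.832 to 0.948). In untreated cells Scin with Neb (1.59), Scin with Rhoq (1.46) and Neb with Rhoq (1.42) were above 1. Cells with 3 or more members made up 28.0% of 5231 microneedle cells (26.9% if independent), 35.9% of 5888 croton oil cells (35.6%) and 2.82% of 8550 untreated cells (2.58%). In the microneedle library 592 cells had no member (448 if independent), 385 had 4 (308), 77 had 5 (48.2) and 9 had 6 (3.85), while fewer cells than independent detection gives had 1, 2 or 3. For 3 or more members the microneedle ratio of observed to independent was 1.04, and it was 0.997 at 5000 UMIs and 0.952 without thinning. No thinned Langerhans cell of any library held all 7.

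Of 254 other genes in 17 lists of the machinery, 148 were compared, and microneedle against untreated 9 of them (6.08%, beside 3.47% of all genes) were higher and 2 (1.35%, beside 1.42%) lower, with a median log2 change of 0.06. Croton oil against untreated, 15 (10.1%, beside 4.7% of all genes) were higher and 7 (4.73%, beside 4.69%) lower. Microneedle against croton oil, 2 (1.35%, beside 0.966%) were higher and 6 (4.05%, beside 1.29%) lower. Most relatives of the members were among those within 2-fold. In the gelsolin family of Scin, 1 of 4 genes was higher after microneedling: Capg, a capping protein, at 11.8 CPM untreated, 151 in croton oil and 63.1 in microneedle. Among 9 formins 1 was higher, Fmnl2, at 14.0, 194 and 43.8 CPM in the same order. Both peaked in croton oil, whereas Fhdc1 peaked in the microneedle library. None of 11 unconventional myosins other than Myo10 passed.

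Among 10 small GTPases related to Rhoq 2 were higher after microneedling, Rhof (16.3, 66.3 and 60.0 CPM in the order untreated, croton oil, microneedle) and Rhoc (2.89, 32.1 and 10.9 CPM). The call of Rhoc was lost in 6 alternative settings, with log2 changes from 0.86 to 0.99. Fnbp1, an F-BAR protein that binds Cdc42-type GTPases, stood at 346, 512 and 721 CPM. Cap2, a cyclase-associated protein that acts on actin monomers, was at 5.32, 6.09 and 21.7 CPM, so that its highest level, like that of Neb, was in the microneedle library. Sh3pxd2b, an adaptor of podosomes, stood at 26.1, 115 and 121 CPM, and Ptk2b, the adhesion kinase Pyk2, at 443, 777 and 957 CPM. On the microtubule side Map1b was higher (6.999, 12.7 and 20.02 CPM), and Stmn1, the tubulin-binding protein stathmin, was lower (92.2, 23.7 and 36.8 CPM), as was Map2 (64.0, 16.1 and 26.2 CPM). The call of Stmn1 was lost without cycling cells (log2 change -0.83) and without C1q-high cells (-0.80), and that of Map2 without C1q-high cells (-0.88). None of the compared genes of the Arp2/3, WAVE, tropomyosin, tubulin, ankyrin and spectrin, and integrin lists passed in this comparison.

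The genes most like each member were found by the Pearson correlation of log2 (CPM + 5) over 16 profiles, each a library and cell class of at least 50 cells, among 8385 genes. The profiles share libraries and their depth, so the r values are descriptions. Rhoq was most like Gm50012 (r = 0.93), which overlaps it, then Gpr171 (0.90) and Lrrc8d (0.90). Scin was most like Adarb1 (0.91), Tmem214 (0.89) and Fibp (0.85), and Adarb1 stood at 36.7, 155 and 205 CPM in Langerhans cells. Myo10 was most like Sdhaf1 (0.90), Tmem214 (0.90) and Gm17276 (0.89). Neb was most like Insr (0.87), Elovl5 (0.87) and Capn5 (0.87), of which Insr was at 164, 118 and 308 CPM, lowest in croton oil and highest after microneedling as Neb was. Fhdc1 was most like Ttll7 (0.92), Cobl (0.92) and Nccrp1 (0.89), and Emp1 (0.80) and Cnih4 (0.80) were among the genes most like Tppp3. Ank2 had the closest companions, Scn3a (0.98), Rtn1 (0.97) and Adam22 (0.97). Scn3a, a sodium channel gene, was at 290.3, 213 and 199 CPM, so it shared with Ank2 the classes in which it was found and not the order of the libraries.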

How the data were processed

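The deposited files hold whole-number UMI counts per gene and cell without normalization, which the authors made with Cell Ranger, version 8.0.0 according to the header lines. The submitters' processing notes name GRCm39. Whether intronic reads were counted, the default of this version, is not given in the sources used here. The 7 members, the gene lists and the gates were chosen with earlier results of these data known.

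Cells with at least 500 genes and at most 10% mitochondrial UMIs were kept. Scrublet (scanpy 1.11.5) marked 2, 0 and 0 doublets by its own threshold and was taken not to have worked, so the highest scorers were removed at 0.8% per 1000 cells (773, 532 and 376 cells), which left 9054, 7626 and 6479. Classes other than Langerhans cells were gated on summed markers as a percent of UMIs (keratinocyte and neutrophil 1%, monocyte or macrophage 0.5%, T cell 0.1%). Counts were summed per library and class and given as CPM, with exact Poisson intervals for sums, exact (Clopper-Pearson) binomial intervals for shares and exact conditional intervals for ratios. Shares and co-detection used cells thinned to 3000 UMIs with a fixed seed, which left out 102 untreated, 32 croton oil and 59 microneedle Langerhans cells. With 1 library per group no count model was fitted. The genes named are the members, for each list those at least 2-fold changed microneedle against untreated (at most 3 a direction), and the 3 most like each member, of which 1 is not reported here. The calculation was tested on simulated data. Promoters were read from GRCm39 for the 5 members with an entry in the RefSeq promoter table, and the background was the protein-coding genes. Python 3.11.15, numpy 2.4.6, scipy 1.17.1, pandas 2.3.3 and, for TMM scaling only, edgeR 4.0.16 in R 4.3.3 were used. Alternatives changed the cells kept, the gate, the cell states included, the depth, the filter, the pseudocount and the scaling.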

Additional observations from a re-analysis of the deposited data

Results flagged for a closer look

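Neb moved in opposite directions in the treated libraries. Its level was 1.90 times the untreated one after microneedling and 0.165 times the untreated one after croton oil. Ank2 stood at 1.14 times untreated after microneedling and 0.774 times after croton oil. Its microneedle direction depended on the gate, since the log2 change was 0.18 over all gated cells and -0.01 with at least 5% MHC class II UMIs. Each treatment has 1 library and both are set against the same untreated library, so the difference between the treatments was not tested for either gene.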

How the results depend on the processing

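No member that was at least 2-fold changed took the opposite sign under the 19 settings tried. Of 399 recomputed log2 changes of the members, 383 kept their side of the 2-fold line, 12 moved past it and 4 fell short of it. The number of members higher after microneedling than in untreated cells was 4 to 5, with 237 to 350 genes higher in all. The number of members higher in microneedle than in croton oil cells went from 1 to 2 with no doublet scorer removed, without cells high in cell cycle genes, with 1 CPM added, and with Epcam-positive cells high in Ccr7 and Fscn1 added to the gate, an alternative chosen after seeing the data. It went to 3 without C1q-high cells. The share of microneedle cells with 3 or more members went from 28.0% to 22.3% with at least 5% MHC class II UMIs, to 44.2% at 5000 UMIs and to 76.4% without thinning. The lists had 2 lower genes microneedle against untreated, 1 without cycling cells and 0 without C1q-high cells. The TMM factors were 1.02, 0.949 and 1.04. No paired analysis was possible because each group has 1 library, and for the same reason no replicate could be left out. Depth limits the low classes: 3 UMIs correspond to 0.0279 to 0.0369 CPM in Langerhans cells but to 4.43 CPM in monocyte- or macrophage-like cells.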

Other observations

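Langerhans cells with and without a UMI of a member, after thinning, were compared for all other genes within each library. The genes named here were chosen after their values were seen, and a cell can lack a UMI by chance at this depth. Microneedle cells with Myo10 (1944) had 377 CPM of Cd80, a costimulatory ligand for T cells, against 170 CPM in the 3287 cells without, a ratio of 2.22 (2.08 to 2.37). They also had more Fmnl2 (72.02 against 28.0 CPM), a formin that, like Fhdc1, was higher in both treated libraries. Cxcl2, a neutrophil chemokine, was higher in these cells too (927 against 478 CPM). Adgre4 (24.7 against 54.2 CPM) and H2-M5 (43.7 against 84.4 CPM) were lower in them. Cells with Fhdc1 went the other way for Fmnl2 (22.9 against 47.3 CPM) and Cxcl2 (415 against 677 CPM).

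In croton oil, cells with Myo10 had more Traf1 (63.2 against 19.1 CPM), a signalling adaptor of the TNF receptor family, and Il4i1 (35.8 against 8.33 CPM), and less of the macrophage genes Mrc1 (28.4 against 95.7 CPM) and C1qb (47.5 against 130 CPM). Cells with Tppp3 showed the reverse for each of these genes: Mrc1 was at 98.7 against 40.0 CPM, C1qb at 115 against 70.2, Traf1 at 20.9 against 53.9 and Il4i1 at 4.29 against 32.4 CPM.

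Microneedle cells with Rhoq had more Scin (254 against 105 CPM, a ratio of 2.42, 2.22 to 2.65) and more Adarb1 (220 against 103 CPM), the gene most like Scin across classes. In the untreated library, cells with Scin had 233 CPM of the keratin gene Krt14 against 35.3 CPM in the rest, a ratio of 6.61 (5.50 to 7.89), and cells with Myo10 110 against 32.8 CPM. The part of keratinocyte RNA in the untreated levels of Scin, Myo10 and Fhdc1 was not tested.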
